A study of Mus musculus with 4 samples.

Results

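The genes described here encode integrins, cadherins, selectins and adhesion molecules of the immunoglobulin (Ig) superfamily, the surface proteins by which cells hold on to matrix and to each other. Members were the rows of the deposited table whose symbol starts with Itga or Itgb and a digit, or is a numbered Cdh, Icam or Cadm gene, a selectin gene, Ncam1, Ncam2 or Vcam1, leaving out Cdh5 and Cdh19. This gave 59 genes of 24421 rows. The rule also takes in 3 genes that encode no integrin but proteins that bind integrin tails (Itgb1bp1, Itgb1bp2 and Itgb3bp), and it leaves out integrin genes named by a letter, such as Itgav. RNA of islets from wild-type mice of the C57BL/6 strain was sequenced in 4 libraries. In 2 of them the islets had received cytoEV every day for 48 h. The labels do not spell out cytoEV, but by its title the study is about vesicles that inflamed beta cells release, small membrane-bound particles outside the cell. The other 2 held islets that the labels call untreated. All islets recovered overnight and were kept in medium with 11 mM glucose. The table names the control columns as control EV, so whether the control islets received other vesicles is not settled here, and the labels state a duration for cytoEV alone. The labels do not state the age or sex of the mice, or if different animals gave the islets of the 2 replicates, so the p-values cover no more than the differences among these samples, which may be technical.

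Integrins are dimers of an alpha and a beta subunit that bind matrix proteins such as collagen and laminin, or counter-receptors on other cells, and link them through talin and kindlin to actin. Cadherins bind cadherins of the neighbouring cell and are tied to actin by catenins; E-cadherin (Cdh1) and N-cadherin (Cdh2) hold islet endocrine cells together. Icam1 and Vcam1 are the Ig molecules on which leukocyte integrins take hold, and in many cells both are induced by cytokines through NF-kB, while selectins let leukocytes roll on vessel walls. Beta cells are known to rest on laminin and collagen IV of the islet capillaries, chiefly through integrins that contain the beta1 subunit.

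Values are CPM, which scales each library to a sum of 1000000 counts, as deposited. A gene was tested if it had at least 1 CPM in 2 or more of the 4 libraries, which held for 12780 genes and for 31 of the 59 members. The 28 members below this level are 13 cadherins, 3 integrin alpha, 4 integrin beta, 3 Icam, 3 selectin genes, Cadm2 and Itgb1bp2, and 4 of them were listed at 0 in all 4 libraries, among them Itgb2l, Cdh12 and Cdh16. Of the tested members, 30 had at least 1 CPM in all 4 libraries. Cadm3 passed through the control libraries alone, so it could be tested only because it was higher there. By the second-highest library, the members just inside the limit were Cadm3 at 1.18 CPM and Cdh9 at 1.35 CPM, and those just outside were Icam2 at 0.935 CPM and Cdh24 at 0.717 CPM. The libraries were close in their shares of insulin reads, 17.48% to 20.7%, and the first principal component, with 72.1% of the variance, set both cytoEV libraries apart from both control libraries. The interferon-induced genes Cxcl10 and Gbp2 rose by 4.58 ± 0.13 and 4.37 ± 0.11 on the log2 scale in cytoEV islets (SE, adjusted p = 2.42e-07 and 1.01e-07 by limma).

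Divided by the length of their merged exons in kb, the levels of the tested members ran from 88.3 CPM per kb for Cdh1 to 0.157 CPM per kb for Itga4, as means over the 4 libraries. Itgb1, the beta subunit shared by most matrix-binding integrins, came second at 59.4 CPM per kb and ranged from 54.7 to 67.3, which did not reach the 86.8 to 89.3 CPM per kb of Cdh1. Cdh2 came next at 28.6 CPM per kb (26.2 to 29.8), also apart from its neighbours. Itga6, the laminin-binding alpha6 subunit, averaged 17.2 CPM per kb, Itgb5, a beta subunit that pairs with alphav, 15.6, and the type II cadherin gene Cdh8 14.5, and the ranges of these 3 genes overlapped. Itga3 (laminin-binding alpha3), Itgb1bp1, Cadm1 and Ncam1 followed between 9.64 and 7.94 CPM per kb, again with overlapping ranges. Vcam1 and Icam1 stood low in this order, at 0.654 and 0.762 CPM per kb.

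**Figure D1:**
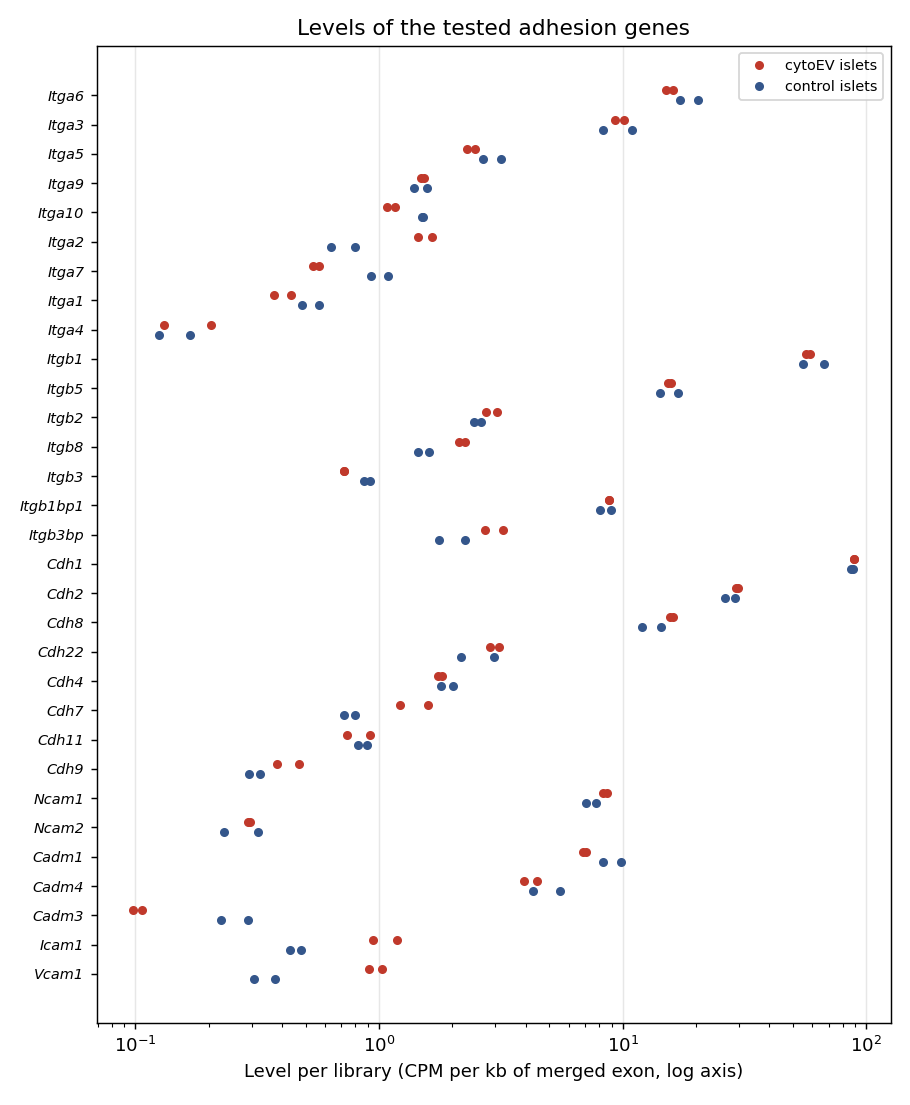
Level of each tested member in each library, in CPM per kb of merged exon on a log axis; red points are the 2 cytoEV libraries, blue points the 2 control libraries, and genes are grouped by family and ordered by mean level. Cdh1 and Itgb1 stand highest with means of 88.3 and 59.4 CPM per kb, and Itga4 lowest at 0.157.

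Between cytoEV and control islets, 5 members rose (Vcam1, Itga2, Icam1, Cdh7 and Itgb8), 2 fell (Itga7 and Cadm3) and 24 did not pass the test, which was limma on log2(CPM + 1) with Benjamini-Hochberg adjustment over all 12780 genes at an adjusted p under 0.05. The called members are 22.6% of those tested, beside 6.67% of all tested genes, with 3.16% of all genes called higher and 3.51% called lower. They include Cadm3, which passed the filter through the control libraries alone. The median log2 change of the 31 members was 0.034, and that of all tested genes 0.0055. In 12 members (38.7%) both cytoEV libraries lay above both control libraries, which held for 27.8% of all tested genes, and in 8 (25.8%) both lay below, against 26.1% of all genes. For either direction the share of all genes was 53.9%, and 11 members overlapped. With 2 libraries a group, the smallest p of an exact permutation test is 0.333, and the calls therefore depend on limma sharing its estimate of spread among genes. Without any filter on low values Vcam1 alone of the 7 kept its call, and the others had limma adjusted p between 0.0628 and 0.109.

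**Figure D2:**
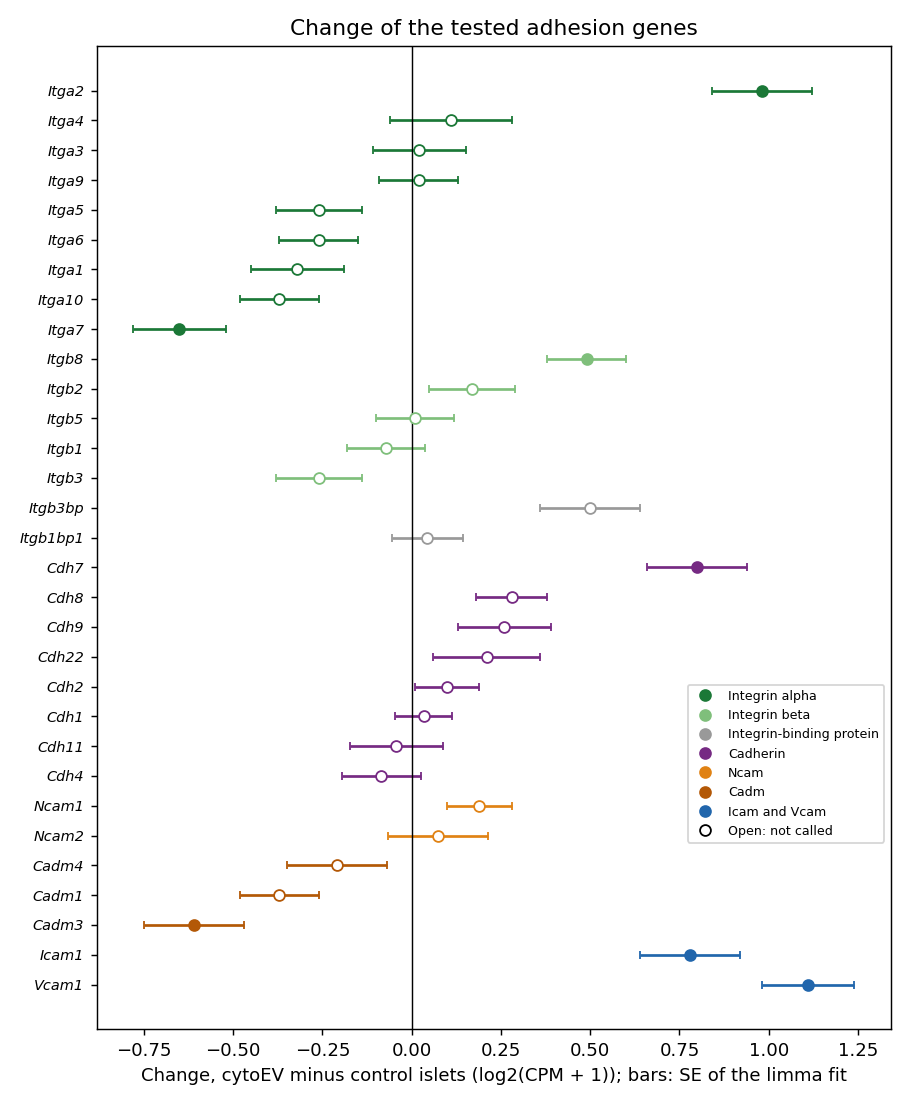
Change of each tested member, cytoEV minus control islets, on the log2(CPM + 1) scale with the SE of the limma fit; filled points passed an adjusted p under 0.05 and colours mark families. Vcam1 is farthest to the right at 1.11 and Itga7 farthest to the left at -0.65.

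Vcam1 and Icam1, the Ig molecules on which leukocyte integrins take hold, rose. Vcam1, the ligand of integrins alpha4beta1 and alpha9beta1, had 4.53 and 5.11 CPM in cytoEV islets, against 1.86 and 1.54 CPM in control islets. Both cytoEV libraries were above both control libraries, and the mean CPM was 2.84-fold higher. The log2 change was 1.11 ± 0.13 (SE, adjusted p = 0.00161 by limma), and it was 0.55 with a pseudocount of 5 CPM. Fold changes on the log2(CPM + 1) scale understate those of low genes. Vcam1 spans bases 116109949 to 116129688 of chromosome 3, minus strand, in GRCm38 (mm10). Icam1, the ligand of the leukocyte integrins alphaLbeta2 and alphaMbeta2, had 2.39 and 3.03 CPM in cytoEV islets, against 1.09 and 1.21 CPM in control islets. Its groups did not overlap either, with a 2.35-fold ratio of mean CPM and a log2 change of 0.78 ± 0.14 (SE, adjusted p = 0.0128 by limma). That log2 change was 1.23 in edgeR and 0.32 with a pseudocount of 5 CPM. Icam1 spans bases 21015985 to 21028817 of chromosome 9, plus strand, and 511 of its 2.535 kb of exon are overlapped by an opposite-strand gene model, Gm47079. The library kit was strand-specific, but no source used here says if counting was by strand, so reads of that gene model may be included.

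Nfkb2 and Relb, which encode subunits of NF-kB, rose as well, with log2 changes of 1.47 ± 0.12 and 1.33 ± 0.12 (SE, adjusted p = 0.000221 and 0.000356 by limma). Irf1, a transcription factor gene induced by interferon, rose by 0.81 ± 0.09 (SE, adjusted p = 0.00114 by limma). The RefSeq promoter windows on GRCm38.p6, from 250 bases before to 50 bases after a start site, were searched on both strands for letters known from binding sites of NF-kB (GGANNTTCC) and of AP-1 (TGANTCA), and for the interferon-stimulated response element. Of the 59 members 40 had such a window, and of the 31 tested members 20. Vcam1 and Itga7 had no such window and were not searched. The windows of the other called members are shown with matches in capitals: Icam1, Itga2, Itgb8 and Cdh7, which rose, and Cadm3, which fell. Cdh7 has 3 start sites, of which the one shown is the only one with a match.
Icam1, chr9:21015690-21015989, plus strand: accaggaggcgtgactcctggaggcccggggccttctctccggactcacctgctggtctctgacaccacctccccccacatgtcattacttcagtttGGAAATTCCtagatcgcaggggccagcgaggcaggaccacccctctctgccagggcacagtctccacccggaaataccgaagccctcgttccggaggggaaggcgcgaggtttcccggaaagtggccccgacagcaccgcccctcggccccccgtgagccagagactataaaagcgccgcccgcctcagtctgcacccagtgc
Itga2, chr13:114932051-114932350, minus strand: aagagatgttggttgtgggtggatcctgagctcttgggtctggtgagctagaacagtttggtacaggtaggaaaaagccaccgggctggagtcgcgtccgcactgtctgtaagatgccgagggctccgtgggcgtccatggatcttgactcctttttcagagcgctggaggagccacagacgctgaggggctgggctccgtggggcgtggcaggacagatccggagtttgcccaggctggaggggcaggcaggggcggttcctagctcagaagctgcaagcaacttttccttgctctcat
Itgb8, chr12:119238227-119238526, minus strand: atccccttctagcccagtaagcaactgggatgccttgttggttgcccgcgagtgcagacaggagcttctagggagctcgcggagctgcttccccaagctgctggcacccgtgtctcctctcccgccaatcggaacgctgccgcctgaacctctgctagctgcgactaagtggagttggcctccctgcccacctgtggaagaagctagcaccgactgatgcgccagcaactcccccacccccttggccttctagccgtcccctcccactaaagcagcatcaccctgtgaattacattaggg
Cdh7, chr1:109983052-109983351, plus strand: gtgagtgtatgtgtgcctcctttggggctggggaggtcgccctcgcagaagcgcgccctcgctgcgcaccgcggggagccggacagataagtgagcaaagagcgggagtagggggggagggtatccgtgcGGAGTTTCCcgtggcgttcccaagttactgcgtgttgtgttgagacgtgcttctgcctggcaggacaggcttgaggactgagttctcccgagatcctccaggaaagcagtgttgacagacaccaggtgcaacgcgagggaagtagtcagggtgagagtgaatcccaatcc
Cadm3, chr1:173367646-173367945, minus strand: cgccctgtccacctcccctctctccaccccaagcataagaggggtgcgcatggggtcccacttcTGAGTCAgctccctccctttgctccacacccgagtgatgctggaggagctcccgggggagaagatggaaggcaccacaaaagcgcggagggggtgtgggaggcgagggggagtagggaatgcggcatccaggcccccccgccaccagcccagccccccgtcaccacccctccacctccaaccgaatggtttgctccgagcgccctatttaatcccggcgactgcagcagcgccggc
In Icam1 the NF-kB letters were matched by GGAAATTCC from position -153 of the start site. Cdh7 held GGAGTTTCC from position -120 and Cadm3 the AP-1 letters TGAGTCA from position -186, and the windows of Itga2 and Itgb8 held none of the 3 motifs. Of 32817 promoter windows of this length, 4.26% held the NF-kB letters, 3.43% the response element and 7.81% the AP-1 letters. Among the members not called, Sele also held the NF-kB letters, and Itga3, Itga9, Sele and Selp the AP-1 letters. These matches describe letters and not binding.

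The other Icam genes and the selectins were near or at 0. Icam2, an Ig molecule of endothelial cells and platelets, had 0.442 and 0.411 CPM in cytoEV islets, against 0.940 and 0.935 CPM in control islets. It was below the limit for testing, and in the fit with no filter its log2 change was -0.44 ± 0.05 (SE, adjusted p = 0.0404 by limma). Icam4 and Icam5 reached at most 0.110 and 0.123 CPM in any library. Sele, the endothelial selectin, was listed at 0.0808 CPM in a single cytoEV library and at 0 in the other and in both control libraries, and Selp at 0.0231 CPM in a single control library and at 0 in the rest.

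**Figure D3:**
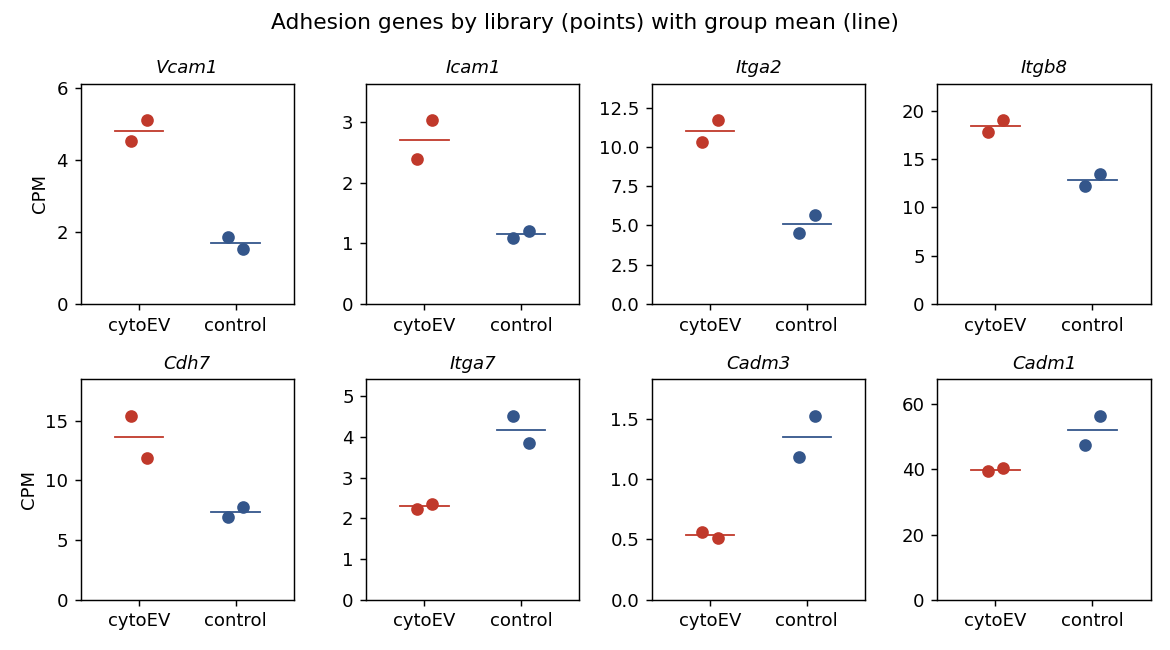
CPM of the 7 called members and of Cadm1 in each library (points) with the group mean (line), cytoEV left and control right, each panel on its own axis from 0. The groups do not overlap in any of the 8 panels, which also holds for 53.9% of all tested genes. The 7 called members were picked from these same values. Vcam1 is at 4.53 and 5.11 CPM in cytoEV and at 1.86 and 1.54 CPM in control islets.

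The receptors for these ligands were measured in the same libraries. Itga4 and Itga9, the alpha subunits that bind Vcam1, were at 1.64 ± 0.506 and 10.8 ± 0.210 CPM in cytoEV islets and at 1.43 ± 0.298 and 10.6 ± 0.949 CPM in control islets (SD, n = 2 each), and neither passed. Itgb2, the beta subunit of leukocyte integrins, had 8.13 and 9.10 CPM in cytoEV islets, against 7.77 and 7.29 CPM in control islets (log2 change 0.17 ± 0.12 SE, adjusted p = 0.427 by limma). Of its alpha partners, which the rule leaves out, Itgal rose, with 4.84 and 5.30 CPM in cytoEV islets, against 2.92 and 2.91 CPM in control islets. Its log2 change was 0.63 ± 0.12 (SE, adjusted p = 0.0177 by limma), a call lost without cytoEV replicate 2 (adjusted p = 0.107). Itgam had 3.89 and 3.81 CPM in cytoEV islets, against 3.35 and 3.67 CPM in control islets. Itgax had 15.6 and 15 CPM in cytoEV islets, against 11.8 and 12.2 CPM in control islets. Both were higher in both cytoEV libraries, but neither passed (limma adjusted p = 0.647 and 0.111). Itgad reached at most 0.0704 CPM in any library. The summed CPM of 13 macrophage markers was 349 and 361 in cytoEV islets, against 353 and 347 in control islets, with Cx3cr1 higher and Cd14 lower among them. Of 8 lymphocyte markers 5 were listed at 0 in all 4 libraries, among them the T cell genes Cd3e and Cd3d and the B cell gene Ms4a1. Of the 3 tested, Cd79a alone was called, higher in cytoEV islets, and the median log2 change was -0.14. At an unadjusted limma p under 0.05, 1 of the 3 was higher and 1 lower. The lymphocyte sum was 9.22 and 9.56 CPM in cytoEV islets, against 8.21 and 8.54 CPM in control islets.

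Among the collagen-binding alpha subunits, Itga2 rose while Itga1 and Itga10 did not pass. Itga2, whose product pairs with beta1 as a collagen and laminin receptor, had 10.3 and 11.7 CPM in cytoEV islets, against 4.52 and 5.69 CPM in control islets. The groups were well apart, the mean CPM was 2.16-fold higher, and the log2 change was 0.98 ± 0.14 (SE, adjusted p = 0.00394 by limma). Its log2 change stayed between 0.85 and 1.12 when any library was left out. The gene spans bases 114833081 to 114932100 of chromosome 13, minus strand. Itga1 had 4.76 and 4.06 CPM in cytoEV islets, against 5.28 and 6.20 CPM in control islets (log2 change -0.32 ± 0.13 SE, adjusted p = 0.196 by limma). Itga10 had 5.43 and 5.87 CPM in cytoEV islets, against 7.61 and 7.57 CPM in control islets (-0.37 ± 0.11 SE, adjusted p = 0.0959 by limma). Both had lower values in both cytoEV libraries, and the log2 change of Itga10 was also -0.37 without control replicate 2. Of the 50-base stretches of Itga10, 30.6% also occur in transcripts of another gene model, so its separate value is uncertain. Itga11 was below the limit, with 0 and 0.0220 CPM in cytoEV islets, against 0.116 and 0.339 CPM in control islets.

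Among the laminin-binding alpha subunits, Itga7 fell. It had 2.23 and 2.35 CPM in cytoEV islets, against 4.51 and 3.84 CPM in control islets, a ratio of mean CPM of 0.548. Itga7, best known from muscle, had a log2 change of -0.65 ± 0.13 (SE, adjusted p = 0.0204 by limma), which was -0.33 with a pseudocount of 5 CPM, and with cytoEV replicate 1 left out it no longer passed (adjusted p = 0.0689). It spans bases 128933818 to 128958282 of chromosome 10, plus strand. Itga6, the alpha subunit gene with the highest level per kb among the members, had 70.4 and 65.7 CPM in cytoEV islets, against 75.0 and 88.7 CPM in control islets. Both cytoEV libraries were lower, but the log2 change of -0.26 ± 0.11 did not pass (SE, adjusted p = 0.184 by limma, 95% interval -0.50 to -0.02 before adjustment). The change was -0.38 without control replicate 1 and -0.14 without control replicate 2. Itga3 overlapped between the groups, at 50.8 ± 2.80 CPM in cytoEV islets and 50.5 ± 9.56 CPM in control islets (SD, n = 2 each).

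The fibronectin-binding alpha subunit gene Itga5 was at 10.5 ± 0.520 CPM in cytoEV islets and 12.8 ± 1.51 CPM in control islets (SD, n = 2 each, limma adjusted p = 0.236). Its log2 change was -0.26, and -0.37 without control replicate 2. Itgav, which the rule leaves out and which pairs with beta1, beta3, beta5, beta6 and beta8, had 173 and 163 CPM in cytoEV islets, against 174 and 206 CPM in control islets (limma adjusted p = 0.354). Itga2b and Itga8 stayed below 1 CPM.

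Of the beta subunit genes, Itgb8 rose. Its product pairs with alphav and is known to activate latent TGF-beta. Itgb8 had 17.8 and 19.0 CPM in cytoEV islets, against 12.2 and 13.4 CPM in control islets. The groups did not overlap, the ratio of mean CPM was 1.43, and the log2 change was 0.49 ± 0.11 (SE, adjusted p = 0.0354 by limma). With cytoEV replicate 1 left out the adjusted p was 0.242, and with cytoEV replicate 2 left out 0.403, so the call needed both. Itgb8 spans bases 119158022 to 119238802 of chromosome 12, minus strand. Itgb1 had 225 and 216 CPM in cytoEV islets, against 209 and 257 CPM in control islets, which overlapped (log2 change -0.072 ± 0.11 SE, 95% interval -0.32 to 0.17). The control libraries decided its sign: the change was -0.22 without control replicate 1 and 0.077 without control replicate 2. Itgb5 was at 52.9 ± 1.15 CPM in cytoEV islets and 52.7 ± 6.47 CPM in control islets, and Itgb3, the beta subunit of the vitronectin receptor, at 4.15 ± 0.00728 CPM in cytoEV islets and 5.17 ± 0.206 CPM in control islets (SD, n = 2 each, limma adjusted p = 0.970 and 0.226). Itgb4, the hemidesmosome subunit, Itgb6, Itgb7 and Itgb2l stayed below 0.5 CPM in every library. Of the integrin-binding proteins, Itgb3bp, which encodes a centromere protein, had 9.06 and 7.60 CPM in cytoEV islets, against 4.93 and 6.30 CPM in control islets (0.50 ± 0.14 SE, adjusted p = 0.0782 by limma). It passed in DESeq2 (adjusted p = 0.0217), and its log2 change was 0.65 without control replicate 2. Itgb1bp1 was at 21.7 ± 0.00836 CPM in cytoEV islets and 21.0 ± 1.48 CPM in control islets (SD, n = 2 each).

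Among 8 tested cadherins, Cdh7 rose and 7 did not pass. Cdh7, a type II cadherin described mainly in the nervous system, had 15.4 and 11.9 CPM in cytoEV islets, against 6.97 and 7.76 CPM in control islets. The cytoEV libraries differed from each other but both lay above the controls, the ratio of mean CPM was 1.85, and the log2 change was 0.80 ± 0.14 (SE, adjusted p = 0.0131 by limma). Without cytoEV replicate 1 the log2 change was 0.62 and the call was lost (adjusted p = 0.0977). Cdh7 spans bases 109982431 to 110140157 of chromosome 1, plus strand. E-cadherin, Cdh1, had 396 CPM in both cytoEV libraries, against 385 and 388 CPM in control islets. The spread between its libraries was small, and its log2 change was 0.034 ± 0.08 (SE, adjusted p = 0.838 by limma, 95% interval -0.14 to 0.21). N-cadherin, Cdh2, had 148 and 145 CPM in cytoEV islets, against 130 and 143 CPM in control islets (0.10 ± 0.09 SE, adjusted p = 0.528 by limma). Its log2 change was 0.17 without control replicate 2 and 0.032 without control replicate 1. Cdh8, the type II cadherin with the highest level per kb, had 117 and 114 CPM in cytoEV islets. In control islets it had 87.4 and 104 CPM (0.28 ± 0.10 SE, adjusted p = 0.142 by limma). Its log2 change was 0.40 without control replicate 2. Cdh9, another type II cadherin, was at 1.51 ± 0.218 CPM in cytoEV islets and 1.09 ± 0.0845 CPM in control islets (SD, n = 2 each). Cdh4, Cdh11 and Cdh22 overlapped between the groups, and the log2 change of Cdh22 was 0.41 without control replicate 1. Of the 13 cadherins below the limit, Cdh6 had 0.0435 and 0.0735 CPM in cytoEV islets, against 0.455 and 0.397 CPM in control islets, and in the fit with no filter its log2 change was -0.43 ± 0.04 (SE, adjusted p = 0.0285 by limma).

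The remaining Ig molecules include the nectin-like Cadm family, and of its 3 tested genes Cadm3 was called lower. It passed the filter through the control libraries alone, so the filter itself favoured a lower value in cytoEV islets. Cadm3, best known from neurons, had 0.558 and 0.514 CPM in cytoEV islets, against 1.18 and 1.52 CPM in control islets, a ratio of mean CPM of 0.398. Its log2 change was -0.61 ± 0.14 (SE, adjusted p = 0.0342 by limma), against -1.34 in edgeR and -0.20 with a pseudocount of 5 CPM, where the call was lost (adjusted p = 0.0534). It was also lost without cytoEV replicate 2 (0.0521) and without control replicate 2 (0.0529). Cadm3 spans bases 173333258 to 173367695 of chromosome 1, minus strand. The gene model Ackr1 shares 284 of its exon bases on the same strand, so the value of Cadm3 may hold its reads. Cadm1, an adhesion molecule of islet endocrine cells and the family's most abundant gene per kb, had 39.4 and 40.5 CPM in cytoEV islets, against 47.6 and 56.4 CPM in control islets. Both cytoEV libraries were lower, but the log2 change of -0.37 ± 0.11 did not pass (SE, adjusted p = 0.0792 by limma). It passed in DESeq2 (adjusted p = 0.00805). The log2 change was -0.49 without control replicate 1 and -0.25 without control replicate 2. Cadm4 overlapped between the groups, and its log2 change was -0.38 without control replicate 2. Ncam1, the neural cell adhesion molecule that islet endocrine cells also carry, had 58.5 and 60.9 CPM in cytoEV islets. In control islets it had 49.7 and 55.0 CPM (0.19 ± 0.09 SE, adjusted p = 0.277 by limma). Its log2 change was 0.26 without control replicate 2. Ncam2 overlapped.

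Several marker lists of other islet cell types had lower sums in cytoEV islets, while the macrophage sums overlapped and the lymphocyte sums were higher. Of all tested genes, 3.51% were called lower. The summed CPM of 13 endothelial markers was 55.2 and 59.1 in cytoEV islets, against 75.3 and 71.7 in control islets, with Flt1, Pecam1 and Cdh5 called lower among the 11 tested. That of 11 stellate and mesenchymal markers was 241 and 264 in cytoEV islets, against 347 and 293 in control islets, with Dcn, Lum and Col3a1 called lower. The 10 Schwann markers summed to 134 and 137 CPM in cytoEV islets, against 137 and 141 CPM in control islets, sums that are mostly Mbp, and Gfap, Cdh19 and Scn7a were called lower. Pecam1, Cdh5 and Cdh19 are also among the other adhesion receptors counted below, so the marker lists and those counts share genes. The 6 neuron markers summed to 2.77 and 3.19 CPM in cytoEV islets, against 26.0 and 26.3 CPM in control islets, and all 4 tested were called lower. With such cytoEV sums, these 4 cannot all have reached 1 CPM in both cytoEV libraries. Some therefore passed the filter through control libraries, and for those the filter itself favoured a lower value. The 9 acinar markers summed to 4.39 and 5.63 CPM in cytoEV islets, against 18.9 and 16.0 CPM in control islets. The 8 ductal markers summed to 317 and 326 CPM in cytoEV islets, against 390 and 367 CPM in control islets. Spp1, also an integrin ligand counted below, was the only ductal marker called. Among endocrine lists, the alpha cell sums were higher in cytoEV islets, the delta and PP cell sums lower, and the beta cell sums overlapped. The part of these cell types in the lower values of Itga7, Cadm3 and Icam2 was not tested, and in such bulk samples fewer cells of a type and less RNA per cell cannot be told apart. Vcam1 and Icam1 rose in the libraries with the lower endothelial and stellate sums, and which cells made their RNA was not tested.

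**Figure D4:**
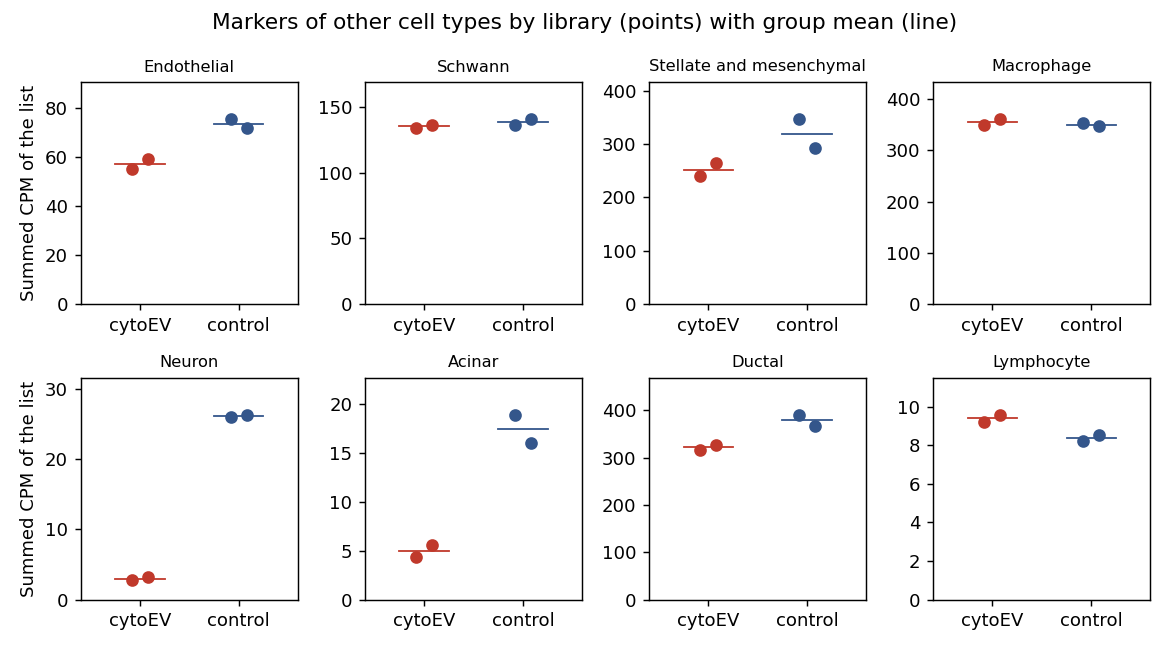
Summed CPM of each marker list in each library (points) with the group mean (line), cytoEV left and control right, each panel on its own axis from 0. The neuron sum is 2.77 and 3.19 CPM in cytoEV and 26.0 and 26.3 CPM in control islets, while the macrophage sums of the groups overlap.

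Genes of the same pathways outside the rule were counted in lists of 93 genes, 86 of them tested. Of these, 3 rose and 12 fell, with a median log2 change of -0.06. Of all tested genes, 3.16% were called higher and 3.51% lower. Of 12 cadherin partners, which include the catenins, and of both sheddase genes, limma, edgeR and DESeq2 called 0, and 2 partners were higher and 2 lower at an unadjusted limma p under 0.05, against 0 sheddase genes. Of 25 tested integrin partners inside the cell, limma called Zyx alone, which encodes the focal adhesion protein zyxin. At an unadjusted limma p under 0.05 there were 1 higher and 4 lower, edgeR called 0, and DESeq2 called 1 higher and 3 lower. Zyx was at 4.69 ± 0.0959 CPM in cytoEV islets and 7.30 ± 0.911 CPM in control islets (SD, n = 2 each), which is -0.54 ± 0.13 in log2 (SE, adjusted p = 0.0409 by limma). It lost its call under 8 of the other settings, among them edgeR (adjusted p = 0.0663) and the loss of either cytoEV library (0.241 and 0.162). Ctnnb1, beta-catenin, had 608 and 593 CPM in cytoEV islets, against 561 and 588 CPM in control islets.

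Of 17 tested integrin ligands, 2 rose and 5 fell, with a median log2 change of -0.38. The shares over all tested genes were 3.16% higher and 3.51% lower. Spp1, osteopontin, a ligand of alphav and alpha9 integrins, had 77.4 and 72.8 CPM in cytoEV islets, against 114 and 133 CPM in control islets (-0.70 ± 0.10 SE, adjusted p = 0.00472 by limma). Npnt, nephronectin, rose to 83.8 and 82.2 CPM in cytoEV islets, against 55.2 and 58.6 CPM in control islets (0.54 ± 0.09 SE, adjusted p = 0.00866 by limma), and lost its call without either cytoEV library (0.186 and 0.129). Fn1, Lamb1, Nid1 and Col4a2, which encode fibronectin, a laminin beta chain, nidogen and a collagen IV chain, also fell, by 0.46 to 0.61 on the log2 scale. The stellate and endothelial sums above were lower in the same libraries, and their part in these falls was not tested.

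Of 26 tested receptors of other adhesion families, 6 fell and 0 rose by limma, which called 3.51% of all tested genes lower and 3.16% higher. At an unadjusted limma p under 0.05 there were 2 higher and 10 lower, edgeR called 0 higher and 5 lower, and DESeq2 called 0 higher and 7 lower. Chl1, an L1-family molecule of neural cells, had 0.935 and 1.51 CPM in cytoEV islets, against 4.46 and 4.90 CPM in control islets (-1.36 ± 0.15 SE, adjusted p = 0.00127 by limma). Pvr, the poliovirus receptor, a nectin-like ligand of natural killer and T cell receptors, had 4.31 and 3.38 CPM in cytoEV islets, against 9.43 and 9.69 CPM in control islets (-1.13 ± 0.13 SE, adjusted p = 0.00151 by limma). Cdh19, a Schwann cell cadherin, fell by 0.96 ± 0.15 (SE, adjusted p = 0.00631 by limma), and Mcam, Pecam1 and Cdh5, which vessels carry, fell by 0.51 to 0.55. The epithelial molecule Epcam was at 89.8 ± 0.690 CPM in cytoEV islets and 89.9 ± 2.05 CPM in control islets (SD, n = 2 each).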

How the data were processed

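Islet mRNA was sequenced in 4 libraries, each from 200 ng RNA and a strand-specific mRNA kit, per the labels' protocols. The CPM values that the authors deposited stand in 1 table of 24421 rows, in which every library sums to 1000000 CPM. Upstream tools, per the submitters' processing notes and without role or order, were edgeR 3.1.1, R 3.6.1, StringTie 2.1.3 and TopHat2 2.0.6, and the build was mm10. Control columns were matched to the untreated samples by name and number. All values were whole multiples of a library's smallest step (100% within 0.01), which gave 129726756 to 156183968 counts per library. These may not be single fragments: in each library 248 to 277 genes had a count of 3, against 91 to 114 with 2 and 52 to 72 with 4, and 6, 9 and 11 were also common, so depth in fragments is unknown and no counting interval is given.

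Limma 3.58.1 (R 4.3.3) was run on log2(CPM + 1) with an intensity trend, the group as the only term and 2 residual degrees of freedom. EdgeR 4.0.16 on the recovered counts called 322 genes higher and 402 lower, and DESeq2 1.42.0 called 745 and 845. All 3 tools were also run on simulated data, with changes placed only in genes with a mean of at least 5 CPM. The called members Vcam1, Itga7, Icam1 and Cadm3 lie below that level, so the simulation does not cover them. Members and lists were chosen with earlier results of these data known. Named genes were all called members, Icam1, Vcam1, Cdh1, Cdh2, Ncam1, Itgb1, Itga6, the family leaders per kb, up to 3 called genes per linked list and 5 checks of the treatment. Other members and linked genes named were chosen after their values were seen. Of 27 numeric identifiers none is named, and some genes and a motif are not reported here. Positions, exon lengths and shared 50-base stretches come from GENCODE M21 and promoters from RefSeq. Tables and plots were made with matplotlib 3.10.9 and pandas 2.3.3 (Python 3.11.15).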

Additional observations from a re-analysis of the deposited data

How the results depend on the processing

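The members called (5 higher, 2 lower) and the linked genes called (3 higher, 12 lower) stayed within 1.5 times of these counts under the other pseudocounts, TMM, quantile and median scaling, insulin reads left out, eBayes without a trend or robust, edgeR and DESeq2, except as follows. With no filter, 1 member was higher and 2 were lower (Icam2 and Cdh6, not Itga7 and Cadm3), and 1 linked gene was higher and 3 lower. With a filter of 5 CPM, 3 members were higher and 0 lower, because fewer members could be tested. With a pseudocount of 5 CPM, 1 member was lower. Leaving out each library in turn gave 3 to 9 members higher and 1 to 5 lower, and 0 to 14 linked genes higher and 4 to 28 lower. The counts fell without a cytoEV library and rose without a control library. A group left with 1 library borrowed its spread from the other. Without control replicate 2 the change of Itgb1 was 0.077. The cause of these shifts was not tested. Over all tested genes, 404 were called higher and 449 lower, against 149 and 179 with no filter, 252 and 302 with a filter of 5 CPM, 745 and 845 in DESeq2, and 215 to 2408 higher and 249 to 2023 lower with a library left out.

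The samples share only a replicate number. With the replicate number as a block, 6 members were higher, with Itgb3bp added (adjusted p = 0.0337 by limma), and 2 lower. The deviations of same-numbered libraries from their group means correlated at -0.22, so the crossed pairing was added after seeing the data. It called 7 members higher and 5 lower, and 9 linked genes higher and 28 lower. Over all 12780 tested genes it called 1469 higher and 1434 lower. The pairing was picked from these same data, so its extra calls add no support. EdgeR on counts divided by 3, also added, called 5 members higher and 2 lower.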

Other observations

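Among the linked genes outside the naming rule, Nfasc, which encodes neurofascin, stood apart by library, with 57.9 and 212 CPM in cytoEV islets, against 251 and 238 CPM in control islets (log2 change -1.13 ± 0.46 SE, adjusted p = 0.184 by limma). It was chosen after its values were seen. Among the members below the limit for testing, Cdh23 had 0 and 0.228 CPM in cytoEV islets, against 0.547 and 0.499 CPM in control islets, and Cdh13 had 0.420 and 0.301 CPM in cytoEV islets, against 0.663 and 0.570 CPM in control islets. Itga2b, the platelet integrin alpha subunit, had 0.689 and 0.683 CPM in cytoEV islets, against 0.563 and 0.435 CPM in control islets.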
